A study of Homo sapiens with 12 samples.

Results

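The interferon-stimulated genes are 51 protein-coding genes, among them transcription factors, RNA sensors and antiviral effectors, that cells are known to switch on when they sense interferon. They were chosen by symbol from general knowledge of the interferon response, and all 51 were found, once each, among the 58233 genes of the expression table. The table covers 12 poly(A) RNA-seq libraries of HL-60, an established human myeloid leukaemia cell line labelled wild type (wt) and grown in RPMI medium with foetal calf serum. Untreated cells, 100 nM all-trans retinoic acid (ATRA), 500 nM palbociclib and the combination of both drugs at the same doses gave 3 libraries each, and the labels give 3 h as the time of treatment. ATRA binds and activates the retinoic acid receptors, whereas palbociclib inhibits the cell cycle kinases CDK4 and CDK6. The study asked whether palbociclib adds to the response of leukaemia cells to ATRA, and the question here was how far the interferon-stimulated genes moved with either drug or with both.

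Type I interferons bind a receptor made of IFNAR1 and IFNAR2. The kinases JAK1 and TYK2 then activate STAT2 and its partners, which join IRF9 and bind a DNA element, the interferon-stimulated response element (ISRE), in front of target genes. Interferon gamma acts on another element, the gamma-activated site (GAS), and IRF1 is a classical target of that arm and itself an activator of ISRE genes. In myeloid leukaemia cells retinoic acid is known to raise some genes of the interferon response, IRF1 among them, without added interferon.

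Values are RPKM, read numbers scaled by gene length and library size, and the table holds them as whole numbers. A listed 0 therefore stands for a value under 1. Of the 51 interferon-stimulated genes, 19 (37.3%) were listed at 0 in all 12 libraries, against 47.7% of all protein-coding genes. A further 7 reached no more than 1 RPKM, 14 reached 2 to 4 RPKM, and 11 reached 5 RPKM or more in at least 1 library. The most abundant was BST2 with 35 to 45 RPKM, followed by TRIM21 with 15 to 24 RPKM. IFITM2 at 12 to 16 RPKM came next in the libraries without ATRA, while in those with ATRA HSH2D at 16 to 20 RPKM lay at or above it. A gene was tested where at least 3 libraries reached 5 RPKM, which held for 10 members (19.6%) and for 7820 genes in all (13.4%; 33.0% of protein-coding genes). IRF1 passed this filter only through the libraries with ATRA (it was also called over the larger set of genes with at least 1 RPKM in 3 libraries, adjusted p = 0.000412 for ATRA), so counts and medians over the tested members describe those genes and are no evidence about the list.

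**Figure D1:**
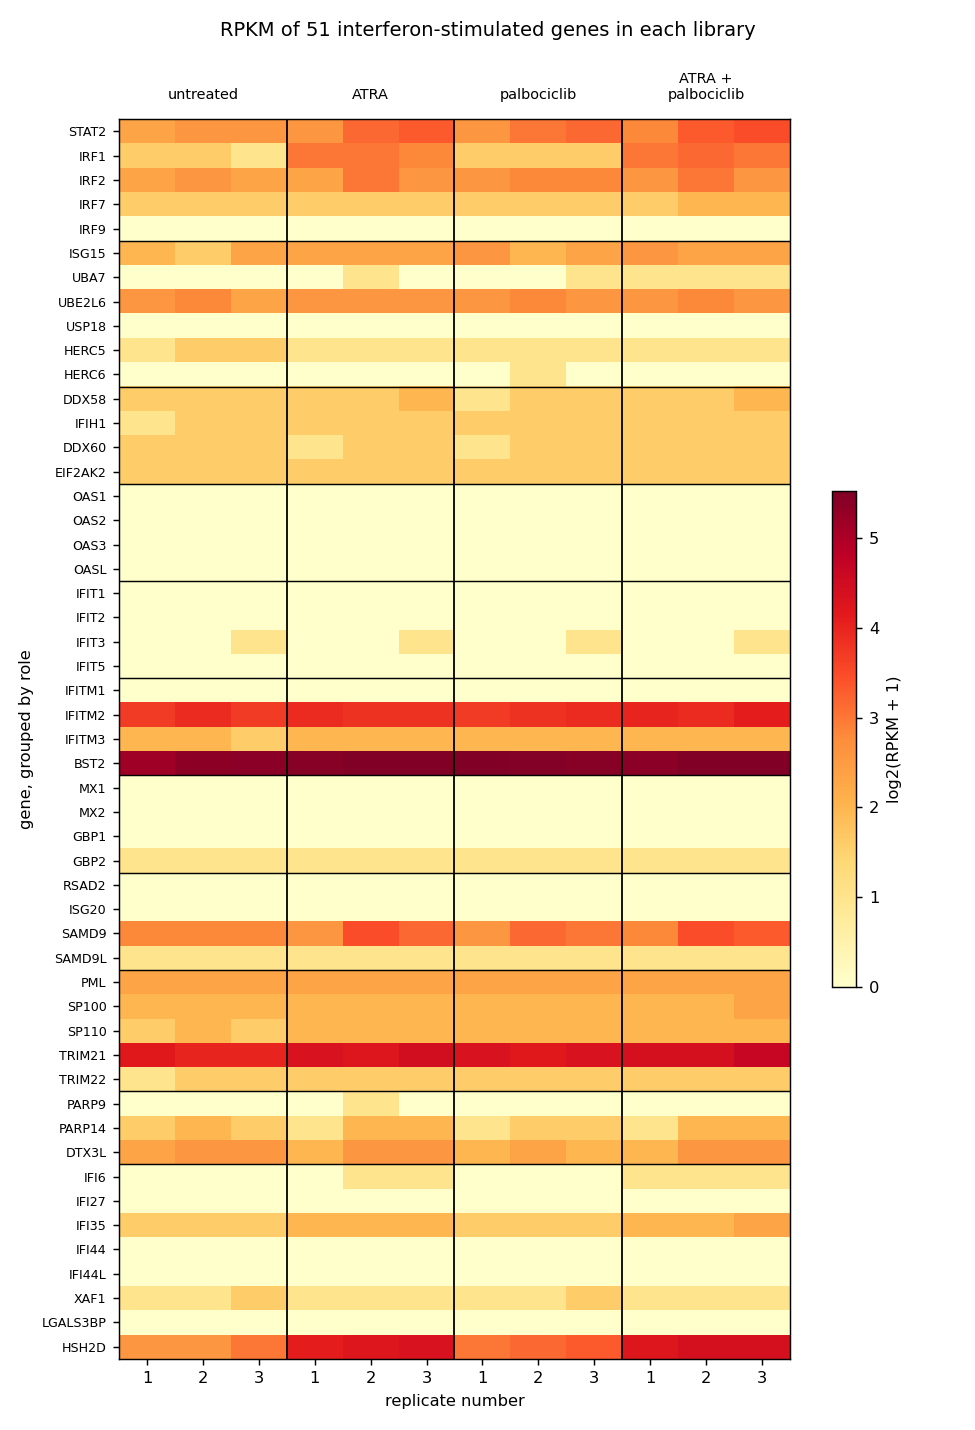
RPKM of the 51 interferon-stimulated genes (vertical, grouped by role with black lines) in the 12 libraries (horizontal, 3 replicates per treatment), coloured by log2(RPKM + 1). The 19 genes listed at 0 in all libraries form pale bands, and HSH2D and IRF1 are darker in all 6 libraries with ATRA than in the 6 without.

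The cells carried the markers of their lineage. MPO, the main granule peroxidase of myeloid progenitors, lay at 1077 to 1579 RPKM and the myeloid factor SPI1 at 80 to 112 RPKM, and AZU1, PRTN3, CTSG, CD33 and CEBPA were present in all libraries, while the T cell genes CD3E, CD3D and CD2, the B cell gene MS4A1 and the erythroid genes HBB and HBA1 were at 0 throughout. CD79A was listed at 1 RPKM in the 6 libraries with ATRA and 0 elsewhere, ELANE did not exceed 1 RPKM, COL1A1 and EPCAM were at 0, and PECAM1 lay at 2 or 3 RPKM without ATRA and 4 to 6 RPKM with it. Genes known to answer each drug differed between the groups. The retinoid target DHRS3 lay at 0 or 1 RPKM without ATRA and at 40 to 50 RPKM with it and CD38 at 2 or 3 and 13 to 21 RPKM, whereas CYP26A1 and RARB were at 0 in all libraries. The S phase entry gene CCNE1 lay at 13 to 15 RPKM in untreated cells and at 5 RPKM in all 3 palbociclib libraries, E2F1 at 12 to 14 and 4 to 5 RPKM, and MCM10 at 12 and 5 to 6 RPKM. With ATRA alone CCNE1 lay at 8 to 9 RPKM and MCM10 at 7 to 8 RPKM, both called lower too by limma (adjusted p = 0.00032 and 0.000904), and E2F1 at 8 to 9 RPKM (adjusted p = 0.00837). The treated replicate 1 libraries stood apart from replicates 2 and 3. The share of tested genes with equal values was 17.9% to 18.9% for pairs with a treated replicate 1 and 30.5% to 36.5% for treated replicates 2 and 3, and total RPKM was highest in replicate 1 of each treated group (386651 to 390247, against 358455 to 378768). In bulk RNA, fewer cells that express a gene and less RNA per cell cannot be told apart.

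To show what the promoters of these genes hold, the ISRE core (GAAANNGAAA) and the GAS core (TTCNNNGAA, counted once where both strands match), which may overlap each other, were searched on both strands of RefSeq windows that run from 250 bases before to 50 bases after each gene's start, on GRCh38.p14. Windows were matched for 38 of the 51 members. The ISRE core was found in 26 of these 38 genes and in 61.2% of their windows, against 3.57% of all 35116 windows, and the GAS core in 11 genes and 24.5% of windows, against 7.66%. Direct repeats of the core bound by retinoic acid receptors (GGTCA or GTTCA), with a spacer of 5 or 2 bases between the full sites, were in none of the member windows and in 0.174% and 0.159% of all windows. Of the 26 genes with an ISRE core, 12 were listed at 0 in all libraries, MX1, RSAD2, IFIT1 and IFI44 among them. IRF2, IRF7, UBA7, USP18, OAS2, OASL, IFIT2, IFITM2, MX2, GBP2, PML, TRIM22 and HSH2D had no window in the table.

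The windows below are those of the tested members with a core, ordered by the size of their ATRA statistic, and of IFIT1, chosen after its values were seen as an ISRE gene that was listed at 0 in all libraries. Capitals mark the ISRE and GAS cores and all other bases are in lower case. Each reads 5′ to 3′ along the strand of its gene.
IRF1, chr5:132490724-132491023, minus strand: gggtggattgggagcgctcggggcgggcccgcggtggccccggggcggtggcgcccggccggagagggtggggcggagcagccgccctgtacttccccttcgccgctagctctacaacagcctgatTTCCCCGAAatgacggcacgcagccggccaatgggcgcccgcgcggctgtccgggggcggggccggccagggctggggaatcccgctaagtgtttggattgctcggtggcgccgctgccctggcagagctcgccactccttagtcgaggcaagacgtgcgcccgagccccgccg
TRIM21, chr11:4393653-4393952, minus strand: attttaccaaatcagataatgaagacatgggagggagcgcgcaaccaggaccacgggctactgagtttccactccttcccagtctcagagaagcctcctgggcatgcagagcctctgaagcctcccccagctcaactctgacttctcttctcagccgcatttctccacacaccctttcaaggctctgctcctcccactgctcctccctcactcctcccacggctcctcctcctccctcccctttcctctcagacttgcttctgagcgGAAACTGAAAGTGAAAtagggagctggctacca
BST2, chr19:17405581-17405880, minus strand: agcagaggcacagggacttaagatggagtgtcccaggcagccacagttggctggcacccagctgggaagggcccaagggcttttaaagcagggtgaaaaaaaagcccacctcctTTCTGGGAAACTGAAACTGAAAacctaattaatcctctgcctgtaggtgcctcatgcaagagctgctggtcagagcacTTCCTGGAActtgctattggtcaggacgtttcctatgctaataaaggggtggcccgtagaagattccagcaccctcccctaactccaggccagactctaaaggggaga
SAMD9, chr7:93117930-93118229, minus strand: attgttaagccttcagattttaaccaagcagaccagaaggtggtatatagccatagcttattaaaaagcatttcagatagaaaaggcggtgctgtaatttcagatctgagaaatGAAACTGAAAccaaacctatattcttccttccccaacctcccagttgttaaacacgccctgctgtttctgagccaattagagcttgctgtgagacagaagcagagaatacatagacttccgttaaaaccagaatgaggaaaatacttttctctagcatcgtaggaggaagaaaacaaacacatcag
DTX3L, chr3:122564088-122564387, plus strand: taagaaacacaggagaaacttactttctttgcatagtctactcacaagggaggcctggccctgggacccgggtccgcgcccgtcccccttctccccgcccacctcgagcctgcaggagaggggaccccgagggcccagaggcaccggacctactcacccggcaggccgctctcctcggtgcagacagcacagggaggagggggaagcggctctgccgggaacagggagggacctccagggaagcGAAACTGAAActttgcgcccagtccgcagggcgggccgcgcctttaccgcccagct
IFIT1, chr10:89392373-89392672, plus strand: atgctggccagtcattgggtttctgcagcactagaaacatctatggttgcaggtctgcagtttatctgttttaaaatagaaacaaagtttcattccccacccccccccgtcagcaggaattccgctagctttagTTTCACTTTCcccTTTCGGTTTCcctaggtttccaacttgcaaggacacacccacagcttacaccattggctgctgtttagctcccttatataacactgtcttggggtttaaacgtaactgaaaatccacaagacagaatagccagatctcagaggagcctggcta

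The IRF1 window holds 1 GAS core, TTCCCCGAA, at positions -124 to -116 from the start, and no ISRE core. TRIM21 has 2 overlapping ISRE cores downstream of its start, at 18 to 33, and BST2 has 2 overlapping ISRE cores at -130 to -115 plus GAS cores at -136 to -128 and -58 to -50, the first of which overlaps the ISRE run. SAMD9 has 1 ISRE core at -136 to -127, and DTX3L has 1 that spans its start, which also lies in the window of its divergent neighbour PARP9. IFIT1 carries 2 ISRE cores on the opposite strand, at -116 to -94. STAT2 and UBE2L6 had a window but neither core. Such matches describe the letters of the window and do not show binding.

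Among the transcription factors, IRF1 rose with ATRA and with the combination. IRF1 (ENSG00000125347, chromosome 5, 132440440 to 132508719, minus strand, by GENCODE 44 on hg38) is an activator of interferon target genes with a short-lived messenger. It stood at 2, 2 and 1 RPKM in untreated cells, at 7, 7 and 6 RPKM with ATRA, at 2 RPKM in all 3 palbociclib libraries and at 7, 8 and 7 RPKM with the combination. All 6 libraries with ATRA thus lay above all 6 without it. The group means were 1.67 ± 0.577, 6.67 ± 0.577, 2 ± 0 and 7.33 ± 0.577 RPKM (SD, n = 3 each). By limma on log2(RPKM + 0.1), IRF1 was 3.99-fold higher with ATRA than in untreated cells (log2 fold change 2.00, SE 0.21, 95% confidence interval 1.52 to 2.47, adjusted p = 9.45e-05). The combination gave 4.38-fold (log2 fold change 2.13, adjusted p = 4.32e-05), while palbociclib alone gave a log2 fold change of 0.31 with an interval from -0.16 to 0.78 (adjusted p = 0.512). At these low values rounding bears on the size. If values were rounded to the nearest whole number and each error of 0.5 RPKM went against the difference, the log2 fold change with ATRA would be 1.5. The antisense gene IRF1-AS1 and the overlapping ENSG00000283782 were at 0 in all libraries.

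STAT2, which works with IRF9 in the main type I interferon complex, was listed at 4, 5 and 5 RPKM in untreated cells, at 5, 8 and 9 RPKM with ATRA, at 5, 7 and 8 RPKM with palbociclib and at 6, 9 and 10 RPKM with the combination. Replicate 1 was the lowest of each group, and only the combination libraries all lay above the untreated ones. The log2 fold change was 0.61 for ATRA (SE 0.25, adjusted p = 0.123), 0.49 for palbociclib (adjusted p = 0.369) and 0.80 for the combination (SE 0.25, adjusted p = 0.0361), so none passed the threshold of 0.001 used here and the last passed only 0.05. In the fit with a replicate block the adjusted p of the combination was 0.000187, which passes, that of ATRA 0.0012 and that of palbociclib 0.0109. The block also pairs untreated libraries by number, although these deviated less together with the treated ones. Without all 4 replicate 1 libraries, a setting chosen after seeing the data, the values were 0.75 for ATRA (adjusted p = 0.00655) and 0.91 for the combination (adjusted p = 0.00281). The adjusted p of the combination rose above 0.05, to between 0.0517 and 0.129, when any single untreated library, palbociclib replicate 2 or combination replicate 2 or 3 was left out.

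Of the other 3 factors, IRF7 and IRF9 lay under the filter and were not tested. IRF2, an antagonist of IRF1 at shared sites, was at 4, 5 and 4 RPKM in untreated cells, at 4, 7 and 5 RPKM with ATRA, at 5, 6 and 6 RPKM with palbociclib and at 5, 7 and 5 RPKM with the combination. Every treated group overlapped or touched the untreated range, and adjusted p ran from 0.194 to 0.404 against untreated cells, so neither threshold was passed. With a replicate block the combination had an adjusted p of 0.0286, which passes 0.05 only. IRF7, the main amplifier of interferon alpha production, was at 2 RPKM in 10 libraries and at 3 RPKM in replicates 2 and 3 of the combination. IRF9, the DNA-binding partner of STAT2, was listed at 0 in all 12 libraries.

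HSH2D, a haematopoietic adaptor protein with an SH2 domain, was the other member that rose. HSH2D (ENSG00000196684, chromosome 19, 16134028 to 16158575, plus strand) stood at 5, 5 and 7 RPKM in untreated cells, at 16, 18 and 19 RPKM with ATRA, at 7, 8 and 9 RPKM with palbociclib and at 18, 20 and 20 RPKM with the combination. The 6 libraries with ATRA lay at 16 to 20 RPKM and the 6 without it no higher than 9 RPKM, with palbociclib touching the untreated range at 7 RPKM. The means were 5.67 ± 1.15, 17.7 ± 1.53, 8 ± 1 and 19.3 ± 1.15 RPKM (SD, n = 3 each). ATRA gave 3.11-fold (log2 fold change 1.64, SE 0.14, adjusted p = 1.61e-05) and the combination 3.41-fold (log2 fold change 1.77, adjusted p = 6.81e-06). Palbociclib alone gave a log2 fold change of 0.50 (SE 0.14, 95% confidence interval 0.20 to 0.80, adjusted p = 0.0701), and its adjusted p was 0.0068 with a replicate block, so neither fit passed 0.001. RAB8A, which overlaps HSH2D on the same strand, stayed at 12 to 14 RPKM in all libraries.

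**Figure D2:**
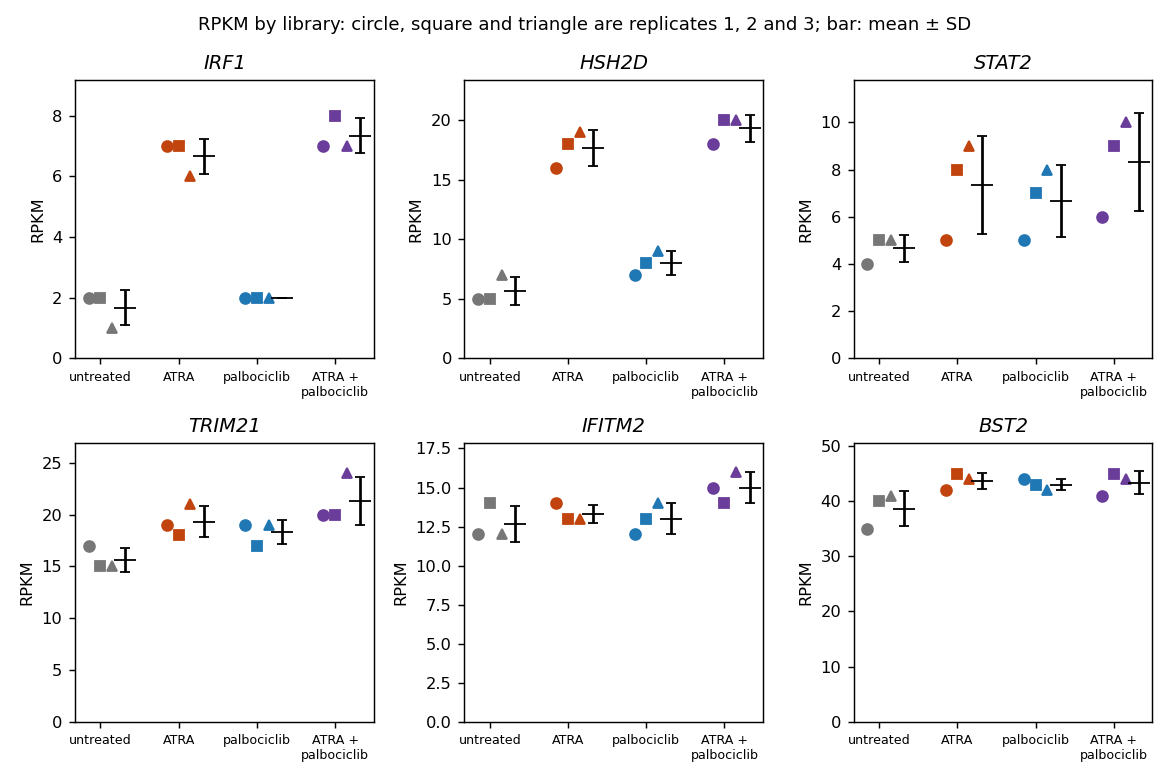
RPKM of 6 interferon-stimulated genes in each library (points, with circle, square and triangle for replicates 1, 2 and 3) by treatment, with the group mean and SD (n = 3) as bars. IRF1 and HSH2D separate the groups with ATRA from those without, while STAT2, TRIM21, IFITM2 and BST2 shift by less and with more overlap.

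Over the 10 tested members, ATRA against untreated cells gave 2 called higher (IRF1 and HSH2D) and 0 lower at an adjusted p under 0.001, where 4.72% of all tested genes were called and 2.77% were called higher. At an adjusted p under 0.05 there were 3, with TRIM21 as the third, against 20.3% of all genes. The median log2 fold change of the tested members was 0.28, against -0.01 over all tested genes, and 9 of the 10 values were positive. The share of positive values over all genes is not given. IRF1 was tested only through the libraries with ATRA, so such medians and counts are no evidence about the list. The combination gave the same 2 calls, against 8.04% of all genes called and 3.76% called higher, and 5 at the looser threshold, against 30.4%, with a median of 0.40. With a replicate block, 5 members passed 0.05 for ATRA and 8 for the combination, where 35.4% and 45.2% of all tested genes did. At 0.001 the block gave 2 and 3 members, against 9.23% and 15.4% of all genes. Without all 4 replicate 1 libraries no member passed 0.001, the adjusted p for ATRA being 0.011 for IRF1 and 0.00311 for HSH2D, with log2 fold changes of 2.11 and 1.63. The share of all genes called in that fit is not given.

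Palbociclib alone gave no called member by limma, either at 0.001, where 0.499% of all genes were called, or at 0.05, where 4.07% were. An unadjusted p under 0.05 was found for 3 members (HSH2D, TRIM21 and BST2), but the share of all genes at that cut is not given. The median log2 fold change of the tested members was 0.19, against 0 for all genes. With a replicate block 2 members, HSH2D and STAT2, passed 0.05, as did 13.6% of all genes, and none passed 0.001, against 1.06%.

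Adding palbociclib to ATRA moved no member past either threshold. No gene at all was called at 0.001 between the combination and ATRA (0%), 0.115% were at 0.05, and no member had an unadjusted p under 0.05. For IRF1 the difference was 0.14 on the log2 scale with a 95% confidence interval from -0.34 to 0.61, and for HSH2D 0.13 with an interval from -0.17 to 0.43, so differences within those bounds could not be told from none. These values are from the fit without a block, although same-numbered ATRA and combination libraries deviated together (correlations 0.782 to 0.908). No member passed either threshold with a replicate block, a fit for which the share of all genes is not given. Against palbociclib alone, the combination raised IRF1 (log2 fold change 1.82, adjusted p = 0.000234) and HSH2D (1.27, adjusted p = 0.00013), where 3.11% of genes were called and 2.11% were called higher, and no further member at 0.05, where 12.5% were. With a replicate block STAT2 also passed 0.05 (adjusted p = 0.0378), as did 23.5% of all genes, against 6.15% at 0.001. The IRF1 call against palbociclib was lost when any 1 palbociclib or combination library was left out (adjusted p 0.00112 to 0.00208), and that of HSH2D without palbociclib replicate 2 or combination replicate 2 or 3 (0.00115 to 0.00123). The departure from additivity, the effect of both drugs less the sum of the single effects on the log2 scale, was called for 0% of genes at either threshold. The smallest unadjusted p of a member was 0.0813, for HSH2D, with an estimate of -0.37 (95% confidence interval -0.79 to 0.05), and IRF1 had -0.17 (-0.84 to 0.49). No member was called for this departure with a replicate block either.

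**Figure D3:**
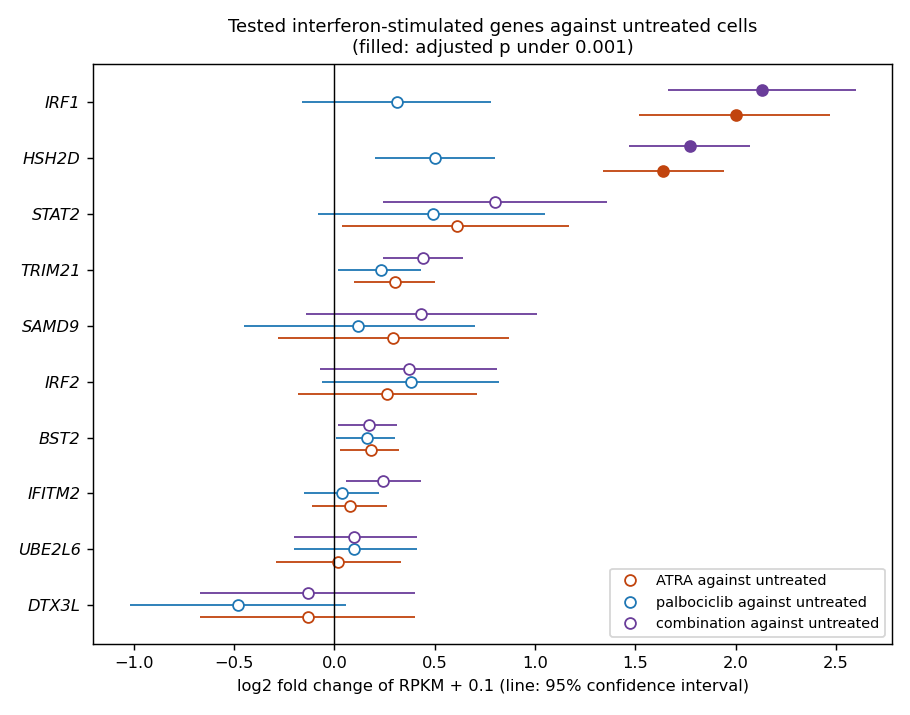
Log2 fold change of RPKM + 0.1 against untreated cells (horizontal) for the 10 tested interferon-stimulated genes (vertical) with 95% confidence intervals as lines, for ATRA, palbociclib and the combination. Filled points, which passed an adjusted p of 0.001, are those of IRF1 and HSH2D with ATRA and with the combination.

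A count of ranges takes in members under the filter. Among the 32 members above 0 in some library, 5 had all 3 ATRA libraries above all 3 untreated ones (BST2, HSH2D, IRF1, TRIM21 and IFI35) and none had them below, while 19.2% of all genes above 0 did not overlap in one direction or the other. The combination gave 7 (HSH2D, IRF1, STAT2, TRIM21, IFI35, IFI6 and UBA7), against 23.5% of all genes, and palbociclib gave only BST2, against 9.24%. The members' shares of 15.6%, 21.9% and 3.12% thus all lay below those of all genes. For ATRA these were 4 of 10 tested members and 1 of 22 under the filter, and for the combination 4 of 10 and 3 of 22. Shares of all genes split in this way are not given. Equal whole-number values count as overlap, and the part of expression level in these shares was not tested. The summed level of the 51 members was 127 to 140 RPKM in untreated cells, 156 to 178 with ATRA, 142 to 155 with palbociclib and 166 to 191 with the combination. Without IRF1 and HSH2D the sums were 120 to 133, 133 to 153, 133 to 144 and 141 to 164 RPKM, and replicate 1 was the lowest library of every group.

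ISG15 is a small protein that UBA7, UBE2L6 and HERC5 attach to other proteins and that USP18 takes off again. ISG15 itself was at 2 to 4 RPKM in untreated cells and at 3 to 5 RPKM in treated ones, with overlapping ranges. UBE2L6 was at 4 to 6 RPKM in all groups (adjusted p = 0.969 for ATRA). UBA7 did not exceed 1 RPKM, which it reached in all 3 combination libraries, HERC5 did not exceed 2 RPKM, HERC6 did not exceed 1 RPKM and USP18 was at 0. UBE2L6 was the only gene of this system that was tested, and it did not pass.

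The cytoplasmic sensors of foreign RNA were listed low and flat. DDX58, which encodes RIG-I, reached 3 RPKM, and IFIH1, which encodes MDA5, reached 2 RPKM, as did the helicase DDX60. EIF2AK2, the kinase PKR that stops translation on double-stranded RNA, was at 2 RPKM in all 12 libraries.

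Most direct antiviral effectors were listed at 0. OAS1, OAS2, OAS3 and OASL, of the family whose active members make the activator of RNase L, were at 0 in all 12 libraries, as were IFIT1, IFIT2 and IFIT5 of the family that binds viral RNA ends. IFIT3 was at 1 RPKM in the 4 replicate 3 libraries and at 0 in the other 8. The GTPases MX1, MX2 and GBP1 were at 0 and GBP2 was at 1 RPKM throughout. RSAD2, which encodes viperin, and the exonuclease gene ISG20 were at 0 too. The zeros included all 6 libraries with ATRA, in which IRF1 was higher. A listed 0 stands for a value under 1 and need not mean that a gene was off. IRF9 and TREX1, which many cells express, were at 0 too, and both overlap another gene on the same strand. Whether HL-60 cells express them was not tested. Of the 19 members at 0, 9 overlap another annotated gene and 3 of these (IRF9, IFIT2 and IFITM1) do so on the same strand by GENCODE 44, although the gene that overlaps IFITM1 has no value in the table. Of the other 32 members, 20 overlap another gene and 11 do so on the same strand. Default counting leaves out reads shared by overlapping genes, and its part in the zeros was not tested.

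The membrane restriction factors ranged from the most abundant member, BST2, to IFITM1 at 0. BST2, which encodes tetherin and holds budding virus at the cell surface, averaged 38.7 ± 3.21 RPKM in untreated cells, 43.7 ± 1.53 with ATRA, 43 ± 1 with palbociclib and 43.3 ± 2.08 with the combination (SD, n = 3 each). The lowest untreated library, replicate 1, was at 35 RPKM, and the differences from untreated did not pass either threshold (adjusted p = 0.0839 for ATRA and for the combination and 0.257 for palbociclib). With a replicate block those of ATRA (adjusted p = 0.0282) and the combination (0.0298) passed 0.05. IFITM2, which blocks virus entry at endosomes, was at 12, 14 and 12 RPKM in untreated cells, at 14, 13 and 13 RPKM with ATRA, at 12, 13 and 14 RPKM with palbociclib and at 15, 14 and 16 RPKM with the combination. The combination touched the untreated range at 14 RPKM (log2 fold change 0.24, adjusted p = 0.0481), and the adjusted p was 0.0513 to 0.151 without untreated replicate 1 or 3, any 1 ATRA library, palbociclib replicate 2 or combination replicate 1 or 3. IFITM3 was at 2 or 3 RPKM and IFITM1 at 0. These 3 neighbours on chromosome 11 are alike in sequence, and any effect of that on their values was not tested.

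TRIM21, an antibody receptor inside the cell and a ubiquitin ligase, showed smaller differences than IRF1. It was listed at 17, 15 and 15 RPKM in untreated cells, at 19, 18 and 21 RPKM with ATRA, at 19, 17 and 19 RPKM with palbociclib and at 20, 20 and 24 RPKM with the combination. The ATRA and combination libraries all lay above the untreated ones and palbociclib touched them at 17 RPKM. The log2 fold change was 0.30 for ATRA (SE 0.09, adjusted p = 0.0414) and 0.44 for the combination (SE 0.09, adjusted p = 0.00462), neither past 0.001. Leaving out untreated replicate 2 or 3, any 1 ATRA library or palbociclib replicate 3 took the first of these above 0.05 (0.0504 to 0.145). Of the other nuclear proteins, PML was at 4 RPKM in all 12 libraries, SP100 was at 3 RPKM in 11 libraries and 4 in the other, SP110 was at 2 or 3 RPKM and TRIM22 at 1 or 2 RPKM.

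SAMD9, a restriction factor for poxviruses, and the ADP-ribosylation genes had low values in the treated replicate 1 libraries. SAMD9 was at 6 RPKM in every untreated library and ranged from 5 to 10 RPKM with ATRA, 5 to 8 RPKM with palbociclib and 6 to 10 RPKM with the combination, replicate 1 being the lowest of each treated group (log2 fold change with ATRA 0.29, SE 0.26, adjusted p = 0.484). With the combination it had 0.43 (adjusted p = 0.24, or 0.048 with a replicate block). DTX3L, a ubiquitin ligase that works with PARP9, was at 4 or 5 RPKM in untreated cells, at 3 to 5 RPKM with ATRA or the combination and at 3 or 4 RPKM with palbociclib (log2 fold change -0.48, adjusted p = 0.351). PARP14 was at 1 RPKM in replicate 1 of each treated group and at 2 or 3 RPKM in all other libraries, and PARP9 did not exceed 1 RPKM. The part of replicate 1 in these values was not tested beyond the fits given for IRF1, HSH2D and STAT2.

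**Figure D4:**
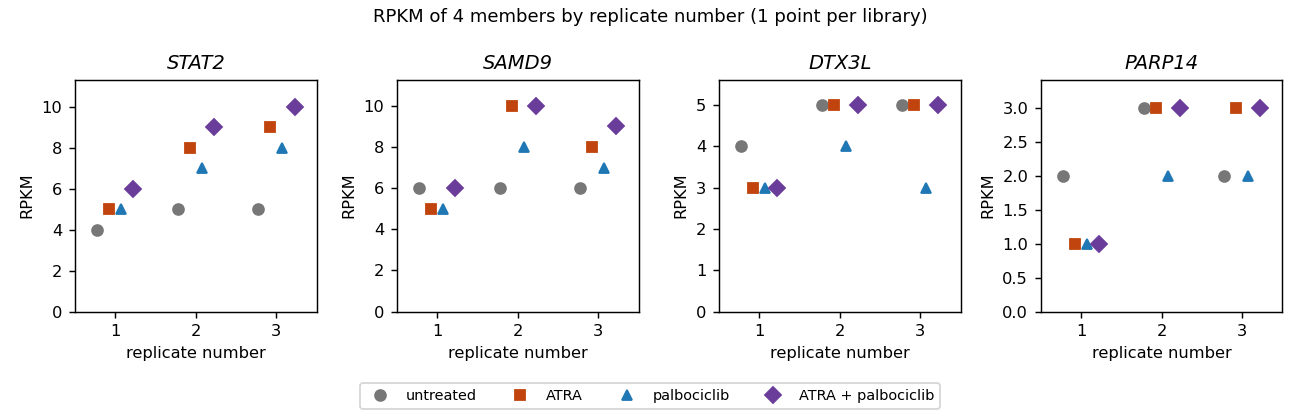
RPKM of STAT2, SAMD9, DTX3L and PARP14 (vertical) by replicate number (horizontal), with 1 point per library coloured and shaped by treatment. In the treated groups replicate 1 is the lowest library, alone or tied, for all 4 genes.

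Among the remaining members IFI35, a partner of NMI, was at 2 RPKM in the 6 libraries without ATRA and at 3 or 4 RPKM in the 6 with it, but it lay under the filter and was not tested. IFI6, a protein that protects mitochondria, was at 1 RPKM in 2 ATRA and 3 combination libraries and at 0 elsewhere. XAF1 was at 1 or 2 RPKM and SAMD9L at 1 RPKM, and IFI27, IFI44, IFI44L and LGALS3BP were at 0.

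The rest of the pathway was read from a list of 105 further genes, of which 43 were tested. All 21 interferon genes on the list were at 0 in all 12 libraries. With ATRA, 3 of the 43 were called higher and none lower at 0.001, where 4.72% of all tested genes were called. At 0.05, 14 had a higher value and 8 a lower one, against 20.3% of all genes, while a replicate block gave 11 higher and 3 lower at 0.001, against 9.23%. The median log2 fold change was 0.10, against -0.01 for all tested genes. The combination gave 10 called higher and 3 lower, against 8.04% of all genes, and 13 and 6 with the block, against 15.4%. Palbociclib gave none called, against 0.499%, and at 0.05 gave 1 higher and 3 lower, against 4.07%, or 3 and 3 with the block, against 13.6%. The combination against palbociclib gave 3 higher and none lower, against 3.11%, and 9 and 1 with the block, against 6.15%. None was called between the combination and ATRA.

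The receptor chains and their kinases were better expressed than most members. IFNAR2, the chain that binds type I interferon tightly, was at 4 RPKM in all untreated and palbociclib libraries, at 7, 8 and 8 RPKM with ATRA and at 6, 8 and 8 RPKM with the combination, with no overlap. It reached the filter only in the libraries with ATRA, as did TRIM38 and APOL2, so the pathway counts describe the tested genes alone. It rose 1.89-fold with ATRA (log2 fold change 0.92, SE 0.11, adjusted p = 0.000199) and 1.80-fold with the combination (adjusted p = 0.000221), and both calls held with a filter at 1 RPKM (adjusted p = 0.000426 and 0.000515), while its partner IFNAR1 was at 7 to 10 RPKM in all groups. The kinase TYK2 was at 10 to 11 RPKM in untreated cells and 15 to 19 RPKM with ATRA (log2 fold change 0.72, adjusted p = 0.00144), and it passed 0.001 with the combination (0.82, adjusted p = 0.000396). JAK1 was at 10 to 16 RPKM over all groups (0.10 with ATRA, adjusted p = 0.703). IL10RB, a chain of the lambda interferon receptor, had 0.71 with ATRA (adjusted p = 0.00387) and was called with the combination (0.84, adjusted p = 0.000912). The receptor chain IFNLR1 was listed at 0 in all libraries. IFNGR1 and IFNGR2, the interferon gamma receptor, each had 0.40 with ATRA (adjusted p = 0.00251 and 0.0125), and IFNGR1 was called with the combination (0.46, adjusted p = 0.000654).

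Signal transducers and inhibitors differed in both directions. PTPN6, the phosphatase SHP-1 that dampens JAK signalling, was at 45 to 49 RPKM in untreated cells and 73 to 81 RPKM with ATRA, a 1.65-fold rise (adjusted p = 2.63e-05). The myeloid factor IRF8 was at 57 to 67 RPKM in untreated cells and 43 to 49 RPKM with ATRA (log2 fold change -0.40, SE 0.09, adjusted p = 0.00976), which misses 0.001. The phosphatase PTPN2, an inhibitor of JAK signalling, had -0.26 (adjusted p = 0.0133), and NMI, which binds STAT proteins, had 0.34 (adjusted p = 0.00238) and was called with the combination (0.40, adjusted p = 0.000654). SOCS1 and SOCS3, feedback inhibitors of JAK kinases, were listed at 0 in all 6 libraries without ATRA and at 1 or 2 RPKM and 3 or 4 RPKM in those with it, under the filter and not tested.

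Upstream sensing genes and other interferon-responsive genes included the largest value of the list. CCL2, a monocyte chemoattractant, was at 11, 11 and 13 RPKM in untreated cells and at 207, 232 and 221 RPKM with ATRA, an 18.7-fold rise (log2 fold change 4.23, SE 0.09, adjusted p = 8.11e-10). It was at 13 to 15 RPKM with palbociclib. SAMHD1, which depletes nucleotides, had 0.97 with ATRA (adjusted p = 0.00198) and was called with the combination (1.03, adjusted p = 0.000872), as were TRIM14 (0.89, adjusted p = 0.000416) and TRIM38 (1.26, adjusted p = 0.000539). With ATRA alone TRIM14 had 0.81 and TRIM38 1.18 (adjusted p = 0.00118 and 0.00127), both short of the threshold of 0.001. The TRIM38 call was lost with the filter at 1 RPKM (adjusted p = 0.00157). TMEM173, which encodes STING, had 0.99 with ATRA (adjusted p = 0.00371) and 1.11 with the combination (adjusted p = 0.00122), both under the looser threshold only.

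The 3 genes called lower were so with the combination. MB21D1, which encodes the DNA sensor cGAS, fell with the combination (log2 fold change -0.57, adjusted p = 0.000835), as did the adaptor TRAF3 (-0.72, adjusted p = 5.89e-05) and SLFN11, a factor that blocks stalled replication forks (-1.13, adjusted p = 0.000168). MB21D1 was listed at 6 RPKM in all untreated and 4 RPKM in all combination libraries. TRAF3 was at 7, 6 and 7 RPKM and at 4 RPKM, and SLFN11 at 15 to 17 and 6 to 8 RPKM. Rounding bears on such low values, and its part in these calls was not tested. With palbociclib alone MB21D1 had -0.47, TRAF3 -0.40 and SLFN11 -0.68, with adjusted p of 0.0167, 0.014 and 0.0239, and SHISA5 had 0.32 (adjusted p = 0.0418). With ATRA alone MB21D1 had -0.26, TRAF3 -0.40 and SLFN11 -0.73, with adjusted p of 0.0678, 0.00363 and 0.00393. TDRD7 (-0.79), PNPT1 (-0.34) and MNDA (-0.30) passed 0.05 with ATRA, as did APOL2 (0.48) and IKBKE (0.44), and NT5C3A passed it with the combination (-0.52, adjusted p = 0.0154).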

How the data were processed

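HL-60 cells were sequenced by the authors as poly(A) TruSeq libraries on an Illumina HiSeq. Reads were mapped to hg38 with HISAT2 and counted with htseq-count under default settings. Tool versions, the annotation, gene lengths and whether the kit kept strand are not given in the sources used here. The deposited values are RPKM that were made whole numbers by the authors, and here they are a score in steps of 1, not counts. Whether they were rounded or cut is not given. The study gives a mean read number per sample but the depth of each library is unknown, so no counting interval is given. It states independent experiments as its general rule and triplicates for the sequencing, and p-values measure the spread between these libraries.

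The members and lists were chosen with earlier results of these data known. Values were tested as log2(RPKM + 0.1) with limma 3.58.1 in R 4.3.3. The added 0.1 lowers the fold of low genes listed above 0, and where a 0 is listed the fold depends on it. One fit covered all 12 libraries with a mean per group and a variance trend, over the 7820 genes with at least 5 RPKM in at least 3 libraries. Benjamini-Hochberg adjustment was made within each of 6 comparisons and the threshold for a call was 0.001. Comparisons against untreated cells share those 3 libraries. The script was tested on simulated data. Values per library are given for members with an adjusted p under 0.05 in at least 1 of the first 5 comparisons and for the 5 transcription factors. Other pathway genes were mostly named on the same threshold. Promoters were searched with Python 3.11.15 and gene positions are from GENCODE 44 on hg38. No other columns of sample values were left out. A few listed genes are not reported here.

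Same-numbered libraries deviated together among the treated groups (correlations of deviations from the group mean over genes 0.438 to 0.908) but less so with untreated cells (0.0453 to 0.367), so the number was taken to pair treated libraries only. The replicate block nevertheless covered every group, untreated cells included, which limits its results against untreated cells. Alternatives were other pseudocounts, filters, scalings and thresholds, a replicate block, no variance trend, only the libraries compared, and each library left out. The fit without replicate 1, the bound on rounding and the filter at 1 RPKM for other pathway genes were added after seeing the data.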

Additional observations from a re-analysis of the deposited data

How the results depend on the processing

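The count of members called higher was 2 for ATRA, for the combination and for the combination against palbociclib. With a filter at 10 RPKM, which leaves IRF1 and STAT2 untested, it was 1 in each. With only the libraries compared it was 0, 0 and 1, the adjusted p with ATRA being 0.011 for IRF1 and 0.00415 for HSH2D. With replicates 2 and 3 only it was 0 in each. In the fit of all 12 libraries, a threshold of 0.05 in place of 0.001 gave 5 with the combination. With single libraries left out, the count against palbociclib ranged from 0 to 2. Apart from the replicate block and the threshold of 0.05, the share of all genes called under each setting is not given. A lower count of members can therefore not be told from fewer calls over all genes. Both log2 fold changes stayed positive in these 3 comparisons under all alternatives (1.41 to 2.32 for IRF1 and 1.14 to 1.93 for HSH2D). The palbociclib value of IRF1 was 0 without untreated replicate 3 (range 0 to 0.47 with 1 library left out), and -0.47 with rounding set against it. That of IFITM2 was -0.02 without palbociclib replicate 3 (-0.02 to 0.11). The replicate block added STAT2 with the combination (adjusted p = 0.000187; 0.80 on the log2 scale) and changed no other call among the members at 0.001. The departure from additivity has no value with only the libraries compared. Except where the setting itself leaves out genes or libraries, the cause of these shifts was not tested. Whole-number values limit what can be seen in the 41 members under the filter.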
